A study of Mus musculus with 12 samples.

Results

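Atria and ventricles of the same control hearts were compared across all genes. The 6 libraries were chosen by their labels, not by any measured value: the 3 atrial and 3 ventricular libraries of mice V327, V333 and V334, of the 12 libraries in the series. These were female FvB mice at 10 weeks of age, of genotype MHCrtTA(hemi), given doxycycline chow (+dox) from postnatal day 1. MHCrtTA places the reverse tetracycline transactivator under the cardiomyocyte-specific alpha myosin heavy chain promoter, so both chambers of every control mouse carried the transactivator and the drug, and no untreated heart was analysed here. The other 6 libraries came from atria and ventricles of mice V119, V120 and V123, of genotype TREDT960I(H)/MHCrtTA(hemi) (CUG960), of the same strain, sex and age and on the same chow, which express an RNA with an expanded CUG repeat in cardiomyocytes. They enter at the end, for the test of whether the chamber difference depends on genotype.

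The mammalian atria fill the ventricles at low pressure and act as an endocrine organ, whereas the ventricles generate the pressure of the circulation and consume most of the energy of the heart. Cardiomyocytes of the chambers use different members of the same protein families, above all the myosin light chains and the small peptides that regulate the calcium pump of the sarcoplasmic reticulum. Atrial myocytes store and release natriuretic peptides, and homeodomain factors of the Iroquois family are known for their part in the ventricular programme. The sinoatrial node lies in the atrial wall, and the atrial walls are thin, so that epicardium and endocardium form a larger part of the tissue.

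Library totals ran from 136770774 to 149950077 counts in atria and from 129140369 to 133480610 counts in ventricles. Levels are given as CPM, counts scaled to library size with TMM factors, in the order of mice V327, V333 and V334, and a difference is the log2 of atria over ventricles, positive where atria were higher. Of 51826 entries in the table, 17451 passed the filter on low counts and were tested with the mouse as a block. At an adjusted p under 0.05 and a fold of at least 1.5, 6113 genes (35.0%) were called, 3195 (18.3%) higher in atria and 2918 (16.7%) higher in ventricles. The difference was at least 4-fold for 937 genes higher in atria and 537 higher in ventricles, and at least 64-fold for 100 and 50 genes. The levels of the chambers did not overlap for 11266 genes (64.6% of those tested) and for 5945 of the genes called. The median difference over all genes tested was 0.03. The first principal component held 82.3% of the variance and separated the chambers. Scaling to total counts alone, with no TMM factor, moved the differences toward atria by a median of 0.46, changed the split to 6903 genes higher in atria and 1450 higher in ventricles, and turned small differences below 0, such as those of Tnni3, Atp2a2 and Ryr2, to values above 0. The mouse number in the labels names the animal, so each atrial library had a ventricular partner from the same heart.

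**Figure D1:**
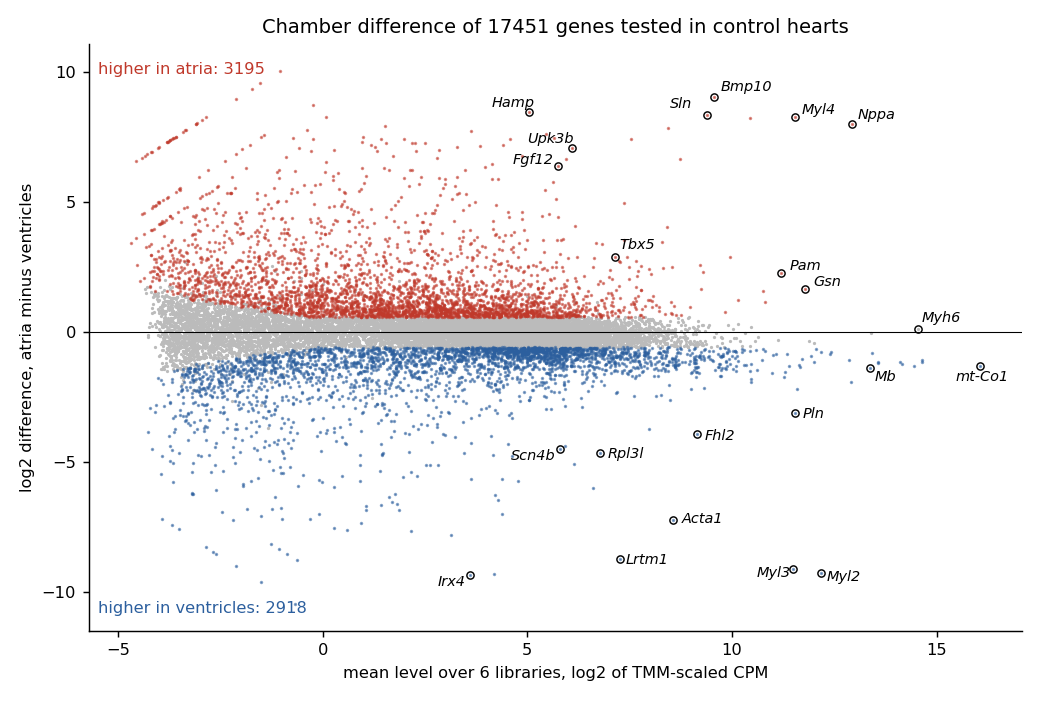
Log2 difference between atria and ventricles (y axis) against the mean level over the 6 control libraries (x axis, log2 of TMM-scaled CPM), with 1 point per gene tested. Red points are the 3195 genes called higher in atria, blue points the 2918 called higher in ventricles, grey points the rest; circles name genes described in the text, from Bmp10 at 9.05 to Irx4 at -9.36.

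A pair of libraries stood apart in some transcripts of the opposite chamber. The ventricles of mouse V334 held 2.97 times the mean of the other 2 ventricular libraries for Myl7, 2.66 times for Myl4, 2.66 times for Sln and 2.08 times for Mybphl. The ratio was 1.91 for Dkk3, 1.65 for Nppa and 1.55 for Bmp10. The atria of mouse V327 held 3.25 times the mean of the other 2 atrial libraries for Myl2, 3.04 times for Acta1 and 2.76 times for Myl3. The ratio was 2.77 for Irx4, on 10 counts, and 1.86 for Lrtm1. Markers with a higher level in the opposite chamber, from 5.19% (Stard10) to 20.3% (Kcnj5) of the same mouse's other chamber, lay nearer to the other mice. A small carry-over of tissue would move those markers little, so they cannot show it. For the ventricles of mouse V334 the ratio was 0.801 for Stard10, 0.952 for Kcnj3, 0.981 for Kcnj5, 1.04 for Nr2f2 and 1.23 for Gja5. For the atria of mouse V327 it was 1.07 for Lbh and 1.17 for Pln. No ventricular library exceeded 0.692% of the level of Myl7 in the atria of the same mouse, and no atrial library exceeded 0.363% of the ventricular level of Myl2. The atria of mouse V334 also stood apart in red cell and macrophage transcripts, described below. The part of tissue carried over between chambers in any low level was not tested.

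The atrial markers were higher in atria without exception. All 12 of the list (100% against 18.3% of genes tested) were called, with a median difference of 7.28. Nppa, which encodes atrial natriuretic peptide (chr4:148000722-148002079, plus strand, GRCm38), stood at 16012, 16128 and 14248 CPM in atria and at 47.4, 53.2 and 82.8 CPM in ventricles. The chambers were therefore separated by more than 2 orders of magnitude in every mouse, and the difference was 8.02, SE 0.24, adjusted p = 1.22e-07 by edgeR's quasi-likelihood test. Per kilobase of exon, Nppa reached 17876 CPM in atria, the fourth highest level of any gene tested there and above the 3690 CPM per kilobase of Myh6, the main adult cardiac myosin heavy chain.

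Bmp10, a ligand of the bone morphogenetic protein family made by atrial trabecular myocytes (chr6:87428994-87437677, plus strand), stood at 1959, 1567 and 1009 CPM in atria and 2.37, 2.34 and 3.66 CPM in ventricles. It varied more between atria than the other 11 markers did, being highest in mouse V327 and lowest in mouse V334, and its difference of 9.05, SE 0.34, adjusted p = 3.42e-07 was the largest of the 12. The atrial regulatory light chain Myl7 (chr11:5896637-5898782, minus strand) stood at 2796, 2771 and 2728 CPM in atria and 7.82, 4.87 and 18.9 CPM in ventricles, a difference of 8.26, SE 0.41, adjusted p = 1.39e-06. The ventricular values were the less even set, with mouse V334 highest; without that mouse the difference was 8.81. Sln encodes sarcolipin, a peptide that inhibits the calcium pump (chr9:53850164-53854560, plus strand), and stood at 1267, 1291 and 1442 CPM against 2.83, 2.93 and 7.65 CPM. Its difference was 8.36, SE 0.30, adjusted p = 2.44e-07.

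The remaining atrial markers ranged from the essential light chain Myl4 and Mybphl, a myosin-binding protein, at differences of 8.30 and 7.88, through the secreted glycoprotein Dkk3 at 6.67 and the lipid transfer protein Stard10 at 4.06, to genes with a lower ratio. Those were the acetylcholine-gated potassium channel subunits Kcnj3 (2.72) and Kcnj5 (2.44), the connexin Gja5 (2.76) and the nuclear receptor Nr2f2 (2.48). For the latter 4 genes ventricles kept between 12.9% and 20.3% of the atrial level of the same mouse. For Myl7, Sln, Nppa, Bmp10, Myl4 and Mybphl they kept less than 1%, from 0.121% for Bmp10 in mouse V327 to 0.692% for Myl7 in mouse V334.

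Of the 10 ventricular markers, 9 were called higher in ventricles (90% against 16.7% of genes tested) and the median difference was -3.41. The ventricular regulatory light chain Myl2 (chr5:122100951-122113472, plus strand) stood at 32.5, 8.58 and 11.4 CPM in atria and 8965, 10298 and 8298 CPM in ventricles. The atria of mouse V327 were the highest of the 3, at about 3 times the other 2, and remained far below every ventricle. The difference was -9.28, SE 0.46, adjusted p = 1.44e-06, and -9.87 without mouse V327. Irx4, an Iroquois homeodomain factor (chr13:73260479-73269608, plus strand), had 10, 6 and 2 counts in the atrial libraries and 2513, 2821 and 2833 counts in the ventricular libraries. The atrial values lay within a few counts of 0, and its difference of -9.36, SE 0.24, adjusted p = 7.07e-08 was the largest on the ventricular side among genes with at least 10 CPM in 1 chamber. Atria held from 0.0504% to 0.287% of the Irx4 level in the ventricles of the same mouse, so the size of the ratio rests on few counts.

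Phospholamban (Pln), the ventricular counterpart of sarcolipin, stood at 687, 554 and 619.5 CPM in atria and 5093, 5661 and 5135 CPM in ventricles, a difference of -3.10. Atria thus held between 9.79% and 13.5% of the ventricular level of the same mouse, while for Myl2 they held at most 0.363%. The transcription cofactor Lbh (-3.72), Irx3 (-4.22), Irx5 (-2.42), the potassium channel accessory subunit Kcnip2 (-2.26) and the repressor Hey2 (-1.13) were also called. Myh7, the fetal and slow myosin heavy chain, was not called. It stood at 1073, 1016 and 1003 CPM in atria and 1308, 1515 and 1128 CPM in ventricles, a difference of -0.34, SE 0.10, adjusted p = 0.0224 whose direction turned to 0.11 when libraries were scaled to total counts.

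**Figure D2:**
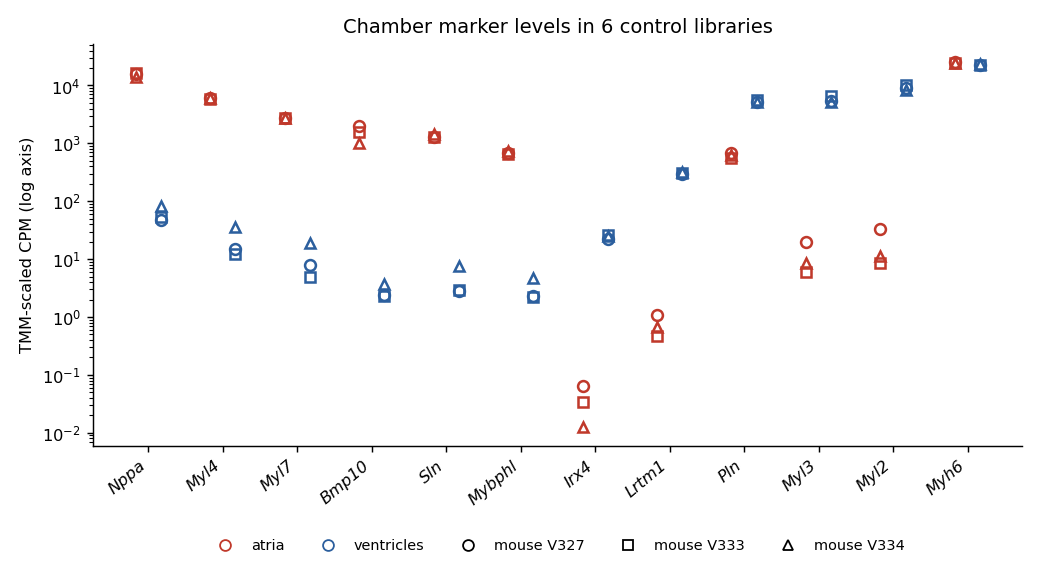
TMM-scaled CPM (y axis, log scale) of 6 atrial genes, 5 ventricular genes and Myh6 (x axis), with 1 symbol per library; red symbols are atria, blue symbols ventricles, and the shape gives the mouse. The ventricles of mouse V334 (triangles) were the highest ventricles for Myl7, Myl4 and Sln, and the atria of mouse V327 (circles) the highest atria for Myl2 and Myl3, while Myh6 lay at 22242 to 25221 CPM in all 6.

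The start regions of the markers are printed because they sit next to the genes with the largest chamber ratios. RefSeq (GRCm38.p6) held a start region for 5 of the 6 genes that define the chambers here: Nppa, Bmp10, Myl7, Myl2 and Irx4; Sln was not matched. The 250 bases before the start were searched on both strands for 3 motifs. AGGTGT (reverse complement ACACCT) is the core bound by T-box factors. AGGTCA (reverse complement TGACCT) is the hexamer of nuclear receptors. AGATAA (reverse complement TTATCT) is a motif of GATA factors. Capitals mark these letters. The windows are 5′ to 3′ on the strand of the gene: Nppa at chr4:148000472-148000721 (plus strand), Bmp10 at chr6:87428744-87428993 (plus strand), Myl7 at chr11:5898783-5899032 (minus strand) and Irx4 at chr13:73260247-73260496 (plus strand).
Nppa: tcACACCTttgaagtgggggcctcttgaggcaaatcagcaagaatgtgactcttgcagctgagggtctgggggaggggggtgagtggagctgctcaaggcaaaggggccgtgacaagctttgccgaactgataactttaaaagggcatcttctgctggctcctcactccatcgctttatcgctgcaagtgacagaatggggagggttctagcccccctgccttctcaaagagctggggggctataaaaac
Bmp10: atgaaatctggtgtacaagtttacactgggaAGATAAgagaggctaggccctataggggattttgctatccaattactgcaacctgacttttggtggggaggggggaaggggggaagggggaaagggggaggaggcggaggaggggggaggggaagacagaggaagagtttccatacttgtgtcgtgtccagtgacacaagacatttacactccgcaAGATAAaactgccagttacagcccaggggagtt
Myl7: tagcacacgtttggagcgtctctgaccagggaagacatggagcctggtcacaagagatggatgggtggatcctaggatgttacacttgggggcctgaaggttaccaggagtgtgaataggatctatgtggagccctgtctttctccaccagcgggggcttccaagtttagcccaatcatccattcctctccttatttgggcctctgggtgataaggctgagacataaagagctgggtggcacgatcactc
Irx4: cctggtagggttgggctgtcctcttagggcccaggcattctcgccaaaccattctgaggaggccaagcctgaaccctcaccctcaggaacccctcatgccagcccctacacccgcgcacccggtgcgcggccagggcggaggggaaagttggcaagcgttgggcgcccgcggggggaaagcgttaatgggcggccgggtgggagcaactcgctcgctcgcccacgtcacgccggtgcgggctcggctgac
The Nppa window held ACACCT at positions -248 to -243 from the start, and the Bmp10 window held AGATAA at -219 to -214 and again at -33 to -28. None of the 3 motifs was in the Myl7 or Irx4 window. The RefSeq windows of Myl2 lie upstream of the gene start in GENCODE, at chr5:122092474-122092723 with AGATAA and chr5:122092939-122093188 with AGGTCA, and are not printed. Over all 32851 start regions, 11.8% held AGGTGT, 14.0% AGGTCA and 10.0% AGATAA on either strand, and over the 15223 of genes tested 9.77%, 11.1% and 6.35% did. AGGTGT was in 11.0% of the 2835 start regions of genes called higher in atria and 10.6% of the 2425 of genes called higher in ventricles, AGGTCA in 10.8% and 14.0%, and AGATAA in 7.62% and 6.52%. Whether these shares lie above or below the background depends on which of the 2 backgrounds is taken, except for AGGTCA in atria, which was below both; no test of the shares was made. A match to 6 letters describes the sequence and is not evidence of binding.

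Beyond the markers, the steepest differences among genes of at least 10 CPM included several with no contractile role. On the atrial side these were Hamp, the iron hormone hepcidin (8.46), the kinase-anchoring protein Sphkap (7.76), the zinc transporter Tmem163 (7.62) and the matrix protein Cilp2 (7.48). Hamp stood at 60.1, 76.4 and 59.9 CPM in atria and at 0.238, 0.195 and 0.122 CPM in ventricles, with no overlap. On the ventricular side were the leucine-rich membrane protein Lrtm1 (-8.73), the predicted gene Gm34302 (-9.30), the Nogo receptor Rtn4r (-7.79), the endocytic adaptor Epn3 (-7.01) and the carboxypeptidase-like Cpxm2 (-6.47). Lrtm1 was the most abundant of these, at 1.07, 0.469 and 0.683 CPM in atria and 298, 303 and 317 CPM in ventricles. By difference in mean CPM rather than ratio, the leading genes higher in atria were Nppa, Myl4, Gsn, Pam and Myl7. Pam encodes the enzyme that amidates peptide hormones and lines atrial secretory granules, and it stood at 4254, 3640 and 3871 CPM in atria against 802, 759 and 836 CPM in ventricles (2.29, SE 0.10, adjusted p = 6.68e-07).

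Among sarcomere genes, the paralogous myosin light chains Myl7 and Myl2, and Myl4 and Myl3, divided by chamber. Of 14 myosin genes tested, 6 were called higher in atria and 3 in ventricles (42.9% and 21.4%, against 18.3% and 16.7% of all genes tested). The ventricular essential light chain Myl3 mirrored Myl4, at 20.2, 5.93 and 8.70 CPM in atria and 5427, 6689 and 5153 CPM in ventricles. When the levels were divided by exon length, Myl7 made up 99.8% ± 0.14 (SD, n = 3) of the sum of Myl7 and Myl2 in atria and 0.396% ± 0.31 in ventricles. Myl4 made up 99.6% ± 0.281 of the sum of Myl4 and Myl3 in atria and 0.172% ± 0.123 in ventricles. The exchange of light chains was thus nearly complete in each of the 6 libraries. Myh6 was not called, at 25221, 24610 and 24621 CPM in atria and 22242, 22868 and 23181 CPM in ventricles, a difference of 0.12, SE 0.11, adjusted p = 0.345, and made up 96.9% and 95.7% of the sum of Myh6 and Myh7. Myh7b, a related heavy chain, was higher in ventricles (-6.27).

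Thin filament genes gave 4 calls higher in atria and 7 higher in ventricles of 16 tested (25% and 43.8%, against 18.3% and 16.7%), and the median was -0.50, or -0.046 on total counts. Skeletal actin, Acta1, stood at 11.3, 1.62 and 5.84 CPM in atria and 782, 629 and 836 CPM in ventricles, a difference of -7.23, whereas cardiac actin, Actc1, differed by -1.06 and cardiac troponin C, Tnnc1, by -1.46. Slow skeletal troponin I, Tnni1, was higher in atria by 5.92 at a low level of 12.5, 16.1 and 13.7 CPM, and beta tropomyosin, Tpm2, by 1.45. Cardiac troponin I, Tnni3, chosen after its values were seen as the abundant partner of Tnni1, was not called (-0.42, SE 0.12, adjusted p = 0.017).

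Among titin, myosin-binding and Z-disc genes, 5 of 29 were called higher in atria and 12 higher in ventricles (17.2% and 41.4%, against 18.3% and 16.7% of all genes tested, so that the atrial share was near the background), with a median of -0.35 that became 0.10 on total counts. Fhl2, a LIM protein that binds titin, was 15.3-fold higher in ventricles, at 70.5, 65.7 and 71.3 CPM in atria and 1118, 1114 and 945 CPM in ventricles. Myotilin (Myot, -3.99) and Mybpc2 (-2.13) shared its direction. The Z-disc protein Pdlim3 (2.53) and the stretch-responsive repeat protein Ankrd1 (1.15) were higher in atria. Xirp1, an actin-binding protein of the intercalated disc, was also called higher in atria (0.71), but its atrial values of 436, 228 and 587 CPM overlapped the ventricular 263, 208 and 243 CPM, and it lost its call without mouse V334, at 0.43, and with DESeq2, at 0.70 and an adjusted p of 0.0566.

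Of 41 heart transcription factors tested, 10 were called higher in atria and 13 higher in ventricles (24.4% and 31.7%, against 18.3% and 16.7% of genes tested). Tbx5, a T-box factor of atrial and conduction development, stood at 271, 225 and 250.3 CPM in atria and 32.7, 37.1 and 30.4 CPM in ventricles, a difference of 2.90, SE 0.11, adjusted p = 3.5e-07. Nr2f1 (3.38) and Gata5 (5.53) were on the same side. The files do not separate left from right atria. The Iroquois genes Irx1 (-6.86), Irx2 (-6.69), Irx3, Irx4 and Irx5 were all called higher in ventricles. Nkx2-5 (0.35, SE 0.09, adjusted p = 0.0111) and Gata4 (0.17, SE 0.07, adjusted p = 0.083), factors that all heart muscle uses and that were chosen after their values were seen, did not reach the fold limit.

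The endocrine list of natriuretic peptides, bone morphogenetic proteins, their receptors and processing enzymes gave 11 calls higher in atria and 3 higher in ventricles of 24 tested (45.8% and 12.5%, against 18.3% and 16.7%), with a median of 0.54. Adm, the vasodilator adrenomedullin, was higher in atria by 2.45, and Npr3, the receptor that clears natriuretic peptides, by 3.54. Bmp5 was also higher in atria (1.98). On the ventricular side were Bmp7 (-2.77), Gdf15, a stress cytokine (-1.72), and the enkephalin precursor Penk (-0.99), each under 5 CPM in every library. Nppb, the brain natriuretic peptide, was added after its values were seen: it stood at 453, 182 and 372 CPM in atria and 149.8, 81.2 and 84.7 CPM in ventricles (1.63, SE 0.16, adjusted p = 6.42e-05). Its range in atria was wide, with mouse V333 lowest, and the chambers did not overlap.

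Of 20 retinoic acid genes tested, 10 were called higher in atria and 3 higher in ventricles (50% and 15%, against 18.3% and 16.7% of all genes tested, so that the ventricular share was near the background). The synthesis enzyme Aldh1a2 stood at 21.5, 20.8 and 20.4 CPM in atria and 4.07, 4.40 and 3.57 CPM in ventricles (2.38, SE 0.10, adjusted p = 4.64e-07). The retinol-handling genes Lrat (3.64) and Stra6 (3.39) were higher in atria too. The binding protein Rbp7 (-2.59), the receptor Rxrg (-1.62) and Cyp26b1, which degrades retinoic acid, were higher in ventricles. Cyp26b1 varied between mice as well as between chambers. It stood at 1.75, 6.53 and 10.2 CPM in atria and 5.34, 23.4 and 50.8 CPM in ventricles. Its difference was -1.95, SE 0.14, adjusted p = 8.36e-06 with the mouse as a block and -2.11 with an adjusted p of 0.0511 without it. Aldh1a2 is also in the epicardial list, which moved in the same direction.

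Of 36 calcium-handling genes tested, 8 were called higher in atria, 7 higher in ventricles and 21 were not called. The shares of 22.2% and 19.4% lay near the 18.3% and 16.7% of all genes tested, so the list as a whole did not stand apart, and the median was -0.04, or 0.42 on total counts. Atp2a2, the calcium pump, at 10952, 10330 and 10973 CPM in atria and 11416, 10075 and 11278 CPM in ventricles, and Ryr2, the calcium release channel, at 792, 737 and 776 CPM and 848, 636 and 922 CPM, were both singled out after their values were seen. Their chambers overlapped and their differences were -0.02, SE 0.10, adjusted p = 0.872 and -0.05, SE 0.11, adjusted p = 0.736. The 2 peptides that regulate the pump were on opposite sides. Per kilobase of exon, Sln made up 81.8% ± 2.04 (SD, n = 3) of the sum of Sln and Pln in atria and 0.178% ± 0.115 in ventricles. Ryr3, a minor release channel, was higher in atria (3.93), as were Atp2a1 (2.29) and the phosphatase inhibitor Ppp1r1a (1.95). Casq1 (-1.93), a calcium-storing protein, and S100a1 (-1.26), a calcium sensor, were higher in ventricles.

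Of 12 voltage-gated calcium channel genes, 5 were called higher in atria and 3 higher in ventricles (41.7% and 25%, against 18.3% and 16.7%). The main L-type pore, Cacna1c, stood at 85.4, 74.7 and 78.8 CPM in atria and 179.7, 144 and 204 CPM in ventricles (-1.13, SE 0.10, adjusted p = 2.74e-05). The L-type pore Cacna1d, which carries pacemaker current, stood at 16.8, 13.4 and 9.96 CPM in atria and 2.03, 1.63 and 2.90 CPM in ventricles (2.62, SE 0.24, adjusted p = 4.34e-05). The 2 L-type pores were thus on opposite sides, with more counts for Cacna1c than for Cacna1d in all 6 libraries. The T-type pores were likewise opposed, with Cacna1h higher in atria (2.75) and Cacna1g higher in ventricles (-1.02). The accessory subunit Cacna2d2 was 54.9-fold higher in atria, at 106, 107 and 78.5 CPM against 1.52, 1.41 and 2.39 CPM, Cacna2d3 was 26.2-fold higher, and Cacna2d1 was higher in ventricles (-1.01). On total counts Cacna1g and Cacna2d1 no longer passed.

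Of 15 sodium and pacemaker channel genes tested, 4 were called higher in atria and 8 higher in ventricles (26.7% and 53.3%, against 18.3% and 16.7% of all genes tested). Fgf12, an intracellular fibroblast growth factor homologue that binds sodium channels, stood at 105, 106 and 107 CPM in atria and 0.987, 1.22 and 1.62 CPM in ventricles, a difference of 6.39, SE 0.15, adjusted p = 4.67e-08. Scn4b, a beta subunit, was on the other side at 6.24, 3.44 and 4.68 CPM in atria and 106, 99.9 and 114 CPM in ventricles (-4.52, SE 0.15, adjusted p = 2.02e-07). The chambers were separated by more than 10-fold in every mouse for both. The pacemaker channels Hcn2 (-1.98) and Hcn4 (-2.22) were higher in ventricles. Hcn4 was low and uneven in atria, at 2.10, 1.61 and 0.627 CPM, against 4.49, 6.65 and 8.06 CPM in ventricles.

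Of 36 potassium channel genes, 9 were called higher in atria and 14 higher in ventricles (against 18.3% and 16.7% of all genes tested). Besides Kcnj3 and Kcnj5, Kcnh7 (3.85) and Kcna4 (2.34) were higher in atria. Kcnj14 (-3.60), the leak channel Kcnk2 (-2.06) and the subunits of the ATP-sensitive channel Abcc9 (-2.44) and Kcnj8 (-2.03) were higher in ventricles. Abcc9, Kcnj8 and the autonomic gene Rgs5 are also in the smooth muscle and pericyte list, of which 11 of 14 were called higher in ventricles. Of 24 autonomic genes, 6 were called higher in atria and 7 higher in ventricles (25% and 29.2%, against 18.3% and 16.7%). The muscarinic receptor Chrm2 stood at 296, 297 and 332.6 CPM in atria and 84.8, 93.6 and 101 CPM in ventricles (1.73, SE 0.08, adjusted p = 9.07e-07), and the G protein Gnao1 (2.86) and Rgs6, which shortens muscarinic signals (1.36), shared its direction. Rgs5 (-2.45), Rgs4 (-2.28), Adra1a (-2.50) and Adora2a (-2.02) were higher in ventricles.

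Of 17 connexin and intercalated disc genes, 5 were called higher in atria and 4 higher in ventricles, shares of 29.4% and 23.5% that rest on few genes beside the 18.3% and 16.7% of all genes tested. Gja5, the connexin of atria and Purkinje fibres, stood at 35.0, 42.6 and 41.5 CPM in atria and 5.38, 5.50 and 6.71 CPM in ventricles, and Gja3 was also higher in atria (1.03). Gja1, the main connexin of working muscle, was singled out after its values were seen and was not called, at 256, 241 and 247 CPM in atria and 236, 249.9 and 245 CPM in ventricles (0.03, SE 0.08, adjusted p = 0.787). Desmosomal cadherins Dsg2 (1.26) and Dsc2 (1.04) were higher in atria, and N-cadherin, Cdh2 (-0.88), and desmoplakin, Dsp (-0.72), in ventricles; the latter pair did not pass on total counts. Markers of the sinoatrial node were divided, with 6 of 12 called higher in atria and 4 higher in ventricles (50% and 33.3%). Vsnl1, a calcium sensor, stood at 6.59, 3.72 and 4.07 CPM in atria and 0.0176, 0.0465 and 0.0348 CPM in ventricles (7.13), and Cpne5 (6.35) and Igfbp5 (2.51) were on the same side. Hcn4, Tbx3 (-1.45), Cacna1g and Smoc2 (-1.34) were higher in ventricles, and Isl1 did not pass the filter. Of 9 ventricular conduction markers, 5 were called higher in atria, among them Etv1 (1.73) and Id2 (1.56), and 3 higher in ventricles, among them Cntn2 (-2.11), shares of 55.6% and 33.3% against 18.3% and 16.7% of all genes tested. The 5 include Gja5, also in the atrial marker list, and Cpne5, also in the sinoatrial node list.

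Most genes of the mitochondrial genome, the respiratory chain and the tricarboxylic acid cycle were called higher in ventricles. The 13 protein genes of the mitochondrial genome were all called higher in ventricles (100% against 16.7% of genes tested), with a median of -1.16. They took 11.9%, 11.7% and 11.5% of all counts in atria and 19.9%, 19.0% and 19.9% in ventricles. The share was lower in atria in each of the 3 mice, with a mean difference of -7.90 percentage points ± 0.576 (SD, n = 3 pairs). A two-sided exact permutation test over the signs of 3 pairs gave p = 0.25, the smallest that 3 pairs allow. mt-Co1, a subunit of complex IV, was the most abundant at 38526, 39786 and 40594 CPM in atria and 96508, 96867 and 97429 CPM in ventricles (-1.29, SE 0.11, adjusted p = 3.21e-05). The difference ran from -0.77 for mt-Nd4l to -1.59 for mt-Co2. The call of mt-Nd4l was lost at a smaller difference without mouse V334 (-0.27) and on total counts (-0.31). It was also lost, at a similar difference, with DESeq2 (-0.78) and in the fit over all 12 libraries (-0.76). Nuclear copies of mitochondrial sequence, such as Gm28661 and Gm28437, share reads with these genes and moved with them at -1.31 and -1.06. With 6 such copies added the share was 16.9% ± 0.341 in atria and 28.7% ± 0.704 in ventricles.

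Nuclear genes of the respiratory chain and ATP synthase followed, with 74 of 79 called higher in ventricles (93.7% against 16.7%), none higher in atria and a median of -1.12. The calls covered every complex, at 36 of 37 genes of complex I, 4 of 4 of complex II, 9 of 9 of complex III, 11 of 13 of complex IV and 13 of 15 of ATP synthase. The medians of the 5 complexes lay between -1.02 and -1.22. Cox8b, the muscle isoform of a complex IV subunit, differed most, at 135, 128 and 122.9 CPM in atria and 423, 507 and 332 CPM in ventricles (-1.69, SE 0.11, adjusted p = 6.81e-06). Ndufs6 (-1.64), Sdhb (-1.54) and Ndufa3 (-1.46) followed. The 5 genes that were not called, named for that reason, were Cox8a, the ubiquitous isoform of the same subunit (0.25), Cox6a1 (-0.15), Ndufa13 (-0.36), Atp5d (-0.55) and Atp5g2 (-0.44). On total counts the median was -0.66 and 44 of the 79 were called higher in ventricles. Over all genes tested, that scaling gave a median of 0.49 and called 1450 of 17451 genes higher in ventricles.

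The tricarboxylic acid cycle gave 18 of 19 genes higher in ventricles (94.7% against 16.7% of all genes tested) and a median of -1.05, led by the isocitrate dehydrogenase subunit Idh3b (-1.59); Idh3a, the exception and so chosen after its values were seen, differed by -0.50. Of 33 genes of fatty acid uptake and oxidation, 25 were called higher in ventricles and 1 higher in atria (75.8% and 3.03%, against 16.7% and 18.3%), with a median of -1.21. The fatty acid binding protein Fabp3 stood at 1219, 970.3 and 1121 CPM in atria and 4917, 5648 and 4523 CPM in ventricles (-2.19, SE 0.13, adjusted p = 4.19e-06). Lpl, which frees fatty acids from lipoproteins (-1.73), and Cpt2, which brings them into oxidation (-1.76), shared its direction. Ucp2, a mitochondrial carrier, was the single gene of the list higher in atria, at 484, 389 and 412 CPM against 105, 86.3 and 82.8 CPM (2.23, SE 0.08, adjusted p = 2.82e-07). Its relative Ucp3 was higher in ventricles (-2.19) and mouse V327 stood apart in both chambers, at 16.1, 3.32 and 3.17 CPM in atria and 64.6, 16.0 and 15.8 CPM in ventricles.

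Glucose use and energy buffering leaned the same way. Of 27 genes of glycolysis and glycogen, 13 were called higher in ventricles and 2 higher in atria (48.1% and 7.41%, against 16.7% and 18.3%), with a median of -0.56 that was -0.11 on total counts, where 5 and 3 were called. On total counts 1450 and 6903 of all 17451 genes tested were called higher in ventricles and in atria. Pfkfb1 (-2.75), Ugp2 of glycogen synthesis (-1.50) and the lactate dehydrogenase subunit Ldhb (-1.46) were higher in ventricles, and Aldoc (2.11) and the glucose transporter Slc2a1 (0.73) in atria. Of 16 energy-buffering genes 12 were called higher in ventricles (75% against 16.7%), including myoglobin, Mb, at 5925, 5624 and 5980 CPM in atria and 14819, 17134 and 14170 CPM in ventricles (-1.39, SE 0.12, adjusted p = 2.33e-05), and the mitochondrial creatine kinase Ckmt2 (-1.80). The brain-type creatine kinase, Ckb, was the 1 called higher in atria (0.72).

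**Figure D3:**
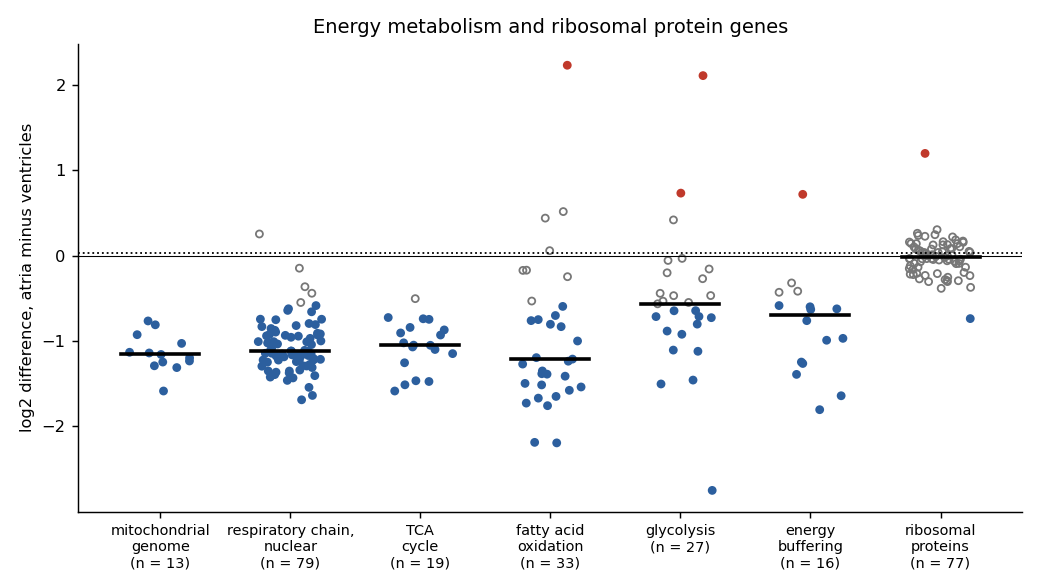
Log2 difference between atria and ventricles (y axis) of the genes tested in 6 metabolic lists and in cytosolic ribosomal proteins (x axis, with the number tested); filled points were called higher in ventricles (blue) or atria (red), open points were not called, black bars are medians and the dotted line is the median of all genes tested. The metabolic lists lie below 0, with medians from -0.56 to -1.21, and the 77 ribosomal protein genes centre on -0.02.

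Ribosomal protein genes differed little between the chambers. Of 77 genes, 75 were not called, so that 2.60% were called against 35.0% of all genes tested. The median was -0.02 (0.43 on total counts, where 15 were called higher in atria). Over all genes tested the median on total counts was 0.49, and 6903 of 17451 genes were called higher in atria. The exceptions were Rpl3, at 301, 281 and 265 CPM in atria and 131, 126 and 113 CPM in ventricles (1.20, SE 0.08, adjusted p = 5.06e-06), and Rps2 (-0.74), which fell short of the fold limit without mouse V333. The striated muscle paralogue of Rpl3, Rpl3l, is outside that list and was looked up after Rpl3 was seen. It stood at 8.60, 7.14 and 9.17 CPM in atria and 196, 239 and 194 CPM in ventricles (-4.66, SE 0.14, adjusted p = 1.38e-07), opposite to Rpl3. Per kilobase of exon, Rpl3 made up 94.6% ± 0.803 (SD, n = 3) of the sum of both in atria and 23.4% ± 2.13 in ventricles. The elongation factors Eef1a1 and Eef1a2, also looked up afterwards, were opposed too, at 1.59 and -0.83, and Eef1a1 made up 77.5% ± 1.64 and 39.2% ± 0.299 of their sum.

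Markers of several other heart cells differed with the chamber and those of others did not stand apart. In bulk tissue, fewer cells of a type and less RNA per cell cannot be told apart. All 13 epicardial and mesothelial markers were called higher in atria (100% against 18.3% of genes tested), with a median of 5.33. Their summed level was 394, 404.9 and 374.6 CPM in atria and 15.3, 17.1 and 14.6 CPM in ventricles. Upk3b, the most abundant, stood at 141, 139 and 128 CPM in atria and 1.49, 1.05 and 0.540 CPM in ventricles (7.10, SE 0.23, adjusted p = 1.67e-07). Of 12 endocardial markers, 10 were called higher in atria with a median of 2.46, among them Plvap, a diaphragm protein of endothelium (3.55), Npr3 and Vwf (2.75). Of 12 fibroblast markers, 10 were called higher in atria, with a median of 1.06. Gsn, the actin-severing gelsolin and the most abundant of them, stood at 4747, 5639 and 5668 CPM in atria and 1647, 1646 and 1752 CPM in ventricles; without it the summed level was 2454, 2792 and 2854 CPM in atria and 1408, 1418 and 1626 CPM in ventricles.

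All 12 macrophage markers were called higher in atria (100% against 18.3% of all genes tested), with a median of 1.28 and a summed level of 406, 364.1 and 746.4 CPM in atria and 180.4, 165.2 and 210.7 CPM in ventricles. The atria of mouse V334 were the highest, with Lyz2, the most abundant, at 157, 124 and 385 CPM against 67.4, 54.7 and 67.5 CPM in ventricles, and stayed the highest with Lyz2 left out of the sum, at 248.7, 239.7 and 361.4 CPM. Without mouse V334 all 12 were still called. Vessel endothelial markers went the other way, with 8 of 12 called higher in ventricles (66.7% against 16.7%) and a median of -0.97, among them Ly6c1 (-2.28), Rgcc (-2.22), Fabp4 (-2.03) and the growth factor receptor Kdr (-1.19). Pecam1, a general endothelial marker chosen after its values were seen, was not called (0.38, SE 0.08, adjusted p = 0.0053). Of 14 smooth muscle and pericyte markers 11 were called higher in ventricles (78.6% against 16.7%) and 1, Cnn1 at 3.76, higher in atria. Red cell transcripts gave 6 of 8 calls higher in ventricles (75% against 16.7%), but 1 without the mouse block, 4 without mouse V327 or V333 and 4 on total counts. On total counts 1450 of all 17451 genes tested were called higher in ventricles. The red cell transcripts varied between mice, with a summed level of 521.5, 334.3 and 2724 CPM in atria and 1823, 2129 and 2875 CPM in ventricles. Hbb-bs, a beta globin whose reads are hard to tell from those of its near copy Hbb-bt, was -1.67, SE 0.42, adjusted p = 0.0095 with the mouse as a block, -1.07 with an adjusted p of 0.21 without it, -2.37 without mouse V334 and -1.05 without mouse V333. No lymphocyte gene of 10 tested was called. Adipocyte markers gave 1 call higher in atria and 2 higher in ventricles of 10, and neuron and Schwann cell markers 1 and 3 of 12, shares no larger than the 35.0% of all genes called. Lymphatic markers gave 2 and 3 of 7 (28.6% and 42.9%, against 18.3% and 16.7%), and of 10 lung markers 1 passed the filter, at under 0.2 CPM in every library.

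**Figure D4:**
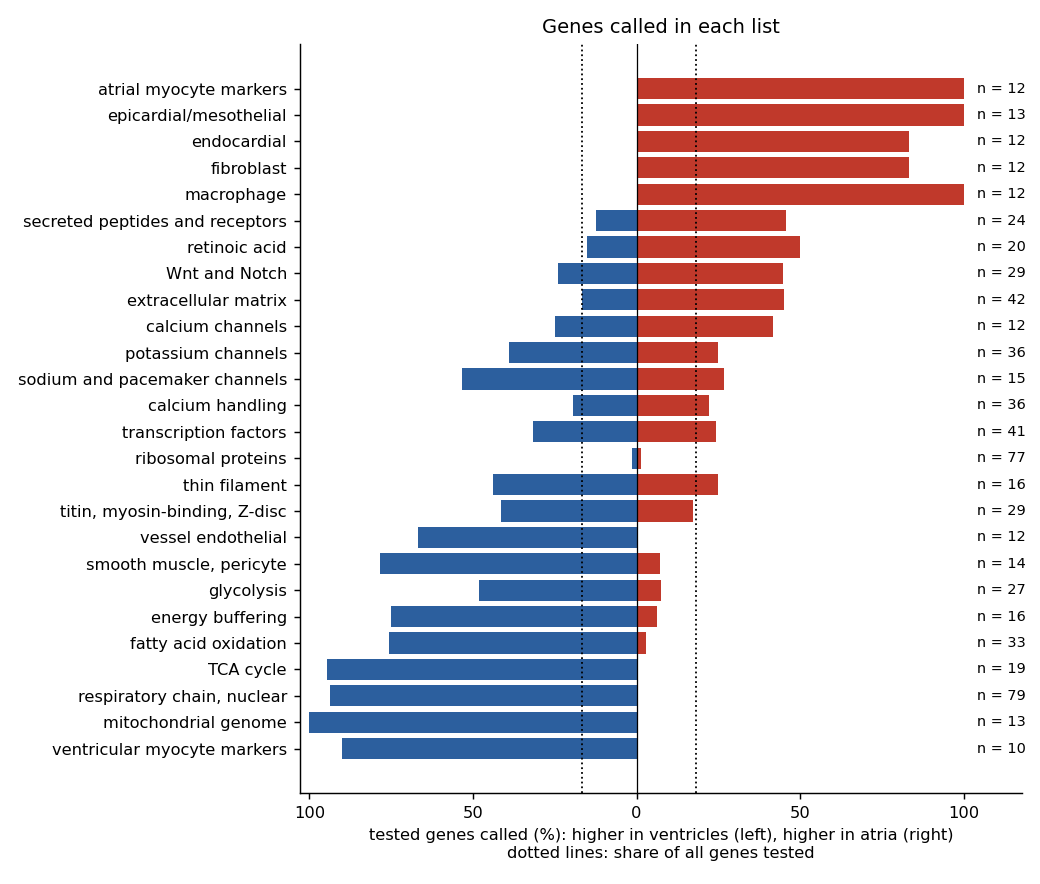
Share of tested genes called higher in ventricles (blue, to the left) and higher in atria (red, to the right) for 26 lists (y axis), in percent, with the number tested at the right; dotted lines are the shares over all genes tested, 16.7% and 18.3%. Epicardial, macrophage and atrial myocyte markers reach 100% on the atrial side and the 13 mitochondrial genes 100% on the ventricular side, while 1 ribosomal protein gene of 77 lies on each side.

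Matrix and signalling genes were mixed. Of 42 matrix genes, 19 were called higher in atria and 7 higher in ventricles (45.2% and 16.7%; the ventricular share equals the 16.7% of all genes tested), the former including the collagen-binding Fmod (3.73), Fbln1 (2.50), fibronectin, Fn1 (1.88), and Mfap4 (1.99), the latter Thbs4 (-2.90) and Col8a1 (-1.49). Of 29 Wnt and Notch genes, 44.8% and 24.1% were called higher in atria and in ventricles, against 18.3% and 16.7% of all genes tested. The 13 higher in atria were led by Dkk3 and the secreted Wnt modulators Rspo1 (4.53) and Sfrp5 (3.83), and the 7 higher in ventricles by the Wnt inhibitor Wif1 (-5.58). Rspo1 is an epicardial marker as well. Of 16 cell division genes, 10 were called higher in ventricles (62.5% against 16.7%) and none in atria, with a median of -1.12; their summed level was 63.8, 62.9 and 66.7 CPM in atria and 87.7, 99.8 and 93.5 CPM in ventricles.

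The chamber difference was then compared between genotypes. In CUG960 hearts 5899 of 17559 genes (33.6%) were called, and 4719 genes were called in the same direction in both genotypes, 78.8% of the control calls tested there and 80.0% of the CUG960 calls. In opposite directions 7 genes were called. The interaction of chamber and genotype had an adjusted p under 0.05 for 1.82% of 18327 genes by edgeR's quasi-likelihood test, and for 245 (4.01%) of the 6113 genes called in control hearts. The count over all genes fell whenever 1 mouse was left out. It was 138 without mouse V119, 83 without V120 and 182 without V123, and 108, 129 and 243 without mice V327, V333 and V334. Of the 6 genes that mark the chambers, Nppa (interaction adjusted p = 0.0388) and Bmp10 (adjusted p = 0.00698) passed by the same test. The light chains Myl7 and Myl2, Sln and Irx4 did not.

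The listed genes with the smallest interaction p were Kcnv2, Scn10a, Kcna4, Sfrp2 and Bmp5. Kcnv2, a silent potassium channel subunit, differed by -1.54 in control and 0.11 in CUG960 hearts. Kcna4, a transient outward potassium channel, went from 2.34 to 0.18, with 100, 179 and 122 counts in control and 1250, 1035 and 825 counts in CUG960 ventricles, and the Wnt modulator Sfrp2 from 2.39 to 0.33. For those 3 genes the difference in CUG960 hearts lay within 0.33 of 0. The sodium channel Scn10a went from 0.64, short of the fold limit without mouse V334, to 2.56 and Bmp5 from 1.98 to 4.45, so that the difference was larger. Bmp5 had 1115, 1392 and 1206 counts in control atria and 3887, 3851 and 3603 counts in CUG960 atria.

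**Figure D5:**
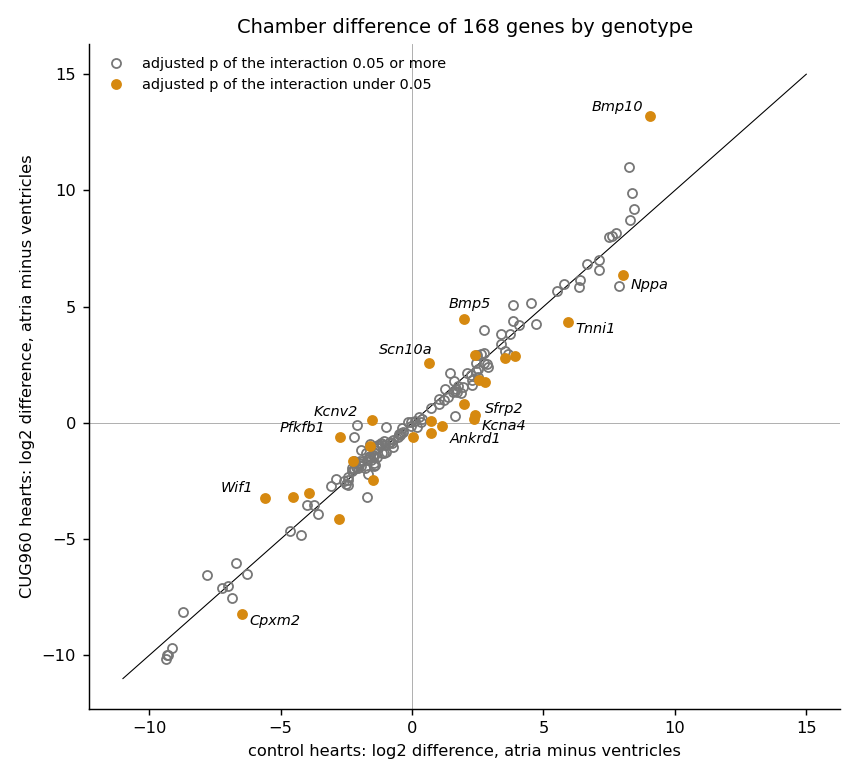
Log2 difference between atria and ventricles in CUG960 hearts (y axis) against that in control hearts (x axis) for 168 genes named here, with 1 point per gene and a line where both are equal. Filled points are the 27 genes with an interaction adjusted p under 0.05, such as Bmp10 above the line and Nppa, Tnni1 and Wif1 nearer to 0 than in control hearts.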

How the data were processed

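Poly(A) RNA of atria and ventricles was sequenced from 3 control and 3 CUG960 mice, 1 library per chamber and mouse. Per the labels and the study's methods, the authors deposited expected counts per gene from RSEM (version 1.3.1) on mm10 with Ensembl annotation; the deposited counts were whole numbers and were not normalized. The labels also name DESeq2 among the authors' tools. ERCC spike-ins were not used here. The 92 symbols listed more than once were kept as separate entries.

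Counts were tested with edgeR 4.0.16 (R 4.3.3): TMM factors, filterByExpr, and the quasi-likelihood test with mouse as a block and chamber as the effect, over the 6 control libraries. A gene was called at a Benjamini-Hochberg adjusted p under 0.05 and a fold of at least 1.5. Samples with the same number come from the same mouse; the correlation of their deviations from the chamber means was 0.0570 to 0.165, and -0.168 to 0.0479 between different mice. The interaction was fitted over all 12 libraries with mouse as a block. On simulated counts for the control comparison (17451 genes, 200 changed), the test recovered 80 of 100 genes changed 2-fold and 93 of 100 changed 4-fold, with 4 false calls. These counts held 200 changed genes, against 6113 genes called in control hearts. The number of false calls with that many genes differing, or with larger differences, was not tested. Exon lengths and coordinates came from GENCODE M21 (GRCm38), which matched 16827 of the genes tested. A length is the union of the exons of all annotated transcripts of a gene, such as 1318 bases for Sln and 2759 for Pln. Levels per kilobase and the shares of paralogue pairs depend on these lengths and are not shares of molecules. With the mouse as a block, p-values measure the chamber difference against how far it varies among these 3 mice, with the variance moderated across genes. Differences between mice that both chambers share are removed by the block. Depth was 129140369 to 149950077 counts per library. Counting error was not compared with the spread between mice gene by gene, and it weighs most on genes with few counts.

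The comparison and the 40 gene lists (820 genes, 3 not in the table) were chosen with earlier results of these data known. Named genes were the marker lists, up to 4 called genes per list and direction with the largest differences (at least 1 CPM), the 10 largest overall per direction (at least 10 CPM), the 5 per direction with the largest difference in CPM and the 5 listed genes with the smallest interaction p; others are marked where they appear. Alternatives covered the block, DESeq2 1.42.0, other scalings and filters, the fold limit, a fit over all 12 libraries and leaving out each mouse.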

Additional observations from a re-analysis of the deposited data

Results flagged for a closer look

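Of the 168 named genes plotted by genotype, 27 had a chamber difference that differed between control and CUG960 hearts in the interaction test, at an adjusted p under 0.05 by the edgeR quasi-likelihood fit, adjusted over 18327 genes. Over all those genes the share was 1.82%, and over genes called in control hearts 4.01%; the 168 include 5 genes chosen for the smallest interaction p, so their own share is not compared with these. Each pair of values is the log2 difference, atria over ventricles, in control and then in CUG960 hearts. Part of each gene's evidence comes from the 6 control libraries that also gave the differences above.

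Of the atrial markers, Nppa went from 8.02 to 6.36 (adjusted p = 0.0388), Gja5 from 2.76 to 1.76 (adjusted p = 0.0478) and Bmp10 from 9.05 to 13.20 (adjusted p = 0.00698). Nppa had 5378, 5726 and 9505 counts in control ventricles and 12625, 30967 and 18946 counts in CUG960 ventricles. Bmp10 had 269, 252 and 420 counts in control ventricles and 5, 38 and 26 counts in CUG960 ventricles, so that its CUG960 ratio rests on few counts. The low ventricular level of atrial genes varied between libraries, with 28, 42 and 6995 counts of Myl7 in the CUG960 ventricles of mice V119, V120 and V123 against 887, 524 and 2166 counts in control ventricles, and the part of this in the 3 interaction values was not tested. Of the ventricular markers Kcnip2 went from -2.26 to -1.65 (adjusted p = 0.0224).

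Of the sarcomere genes, 5 passed the interaction test. Tnni1 went from 5.92 to 4.36 (adjusted p = 0.021), Pdlim3 from 2.53 to 1.86 (adjusted p = 0.0279) and Fhl2 from -3.93 to -3.00 (adjusted p = 0.00909). Ankrd1 went from 1.15 to -0.13 (adjusted p = 0.0394) and Xirp1 from 0.71 to -0.45 (adjusted p = 0.041). The CUG960 value of Ankrd1 did not pass its own test (adjusted p = 0.579), and that of Xirp1 had the opposite sign to control hearts (adjusted p = 0.00128). Ankrd1 had 147140, 104219 and 123749 counts in control ventricles and 331766, 364791 and 339217 counts in CUG960 ventricles.

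Of the channels and junction genes, Scn4b went from -4.52 to -3.21 (adjusted p = 0.0133), Scn10a from 0.64 to 2.56 (adjusted p = 0.00202), Kcna4 from 2.34 to 0.18 (adjusted p = 0.00202) and Kcnv2 from -1.54 to 0.11 (adjusted p = 0.00063). Ryr3 went from 3.93 to 2.87 (adjusted p = 0.0279) and Gja1 from 0.03 to -0.61 (adjusted p = 0.0256). Gja1 was the 1 gene of the 27 that was not called in control hearts.

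Of the secreted and signalling genes, Npr3 went from 3.54 to 2.79 (adjusted p = 0.033), Sfrp2 from 2.39 to 0.33 (adjusted p = 0.00202), Wif1 from -5.58 to -3.25 (adjusted p = 0.00517) and Rxrg from -1.62 to -0.99 (adjusted p = 0.0407), each nearer to 0. Bmp5 went from 1.98 to 4.45 (adjusted p = 0.00202), Bmp7 from -2.77 to -4.12 (adjusted p = 0.0323) and Aldh1a2 from 2.38 to 2.94 (adjusted p = 0.0473), each farther from 0. Wif1 rested on 41, 15 and 23 counts in control atria against 325, 294 and 217 counts in CUG960 atria.

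Of the metabolic genes, Pfkfb1 went from -2.75 to -0.61 (adjusted p = 0.00226) and Slc2a1 from 0.73 to 0.07 (adjusted p = 0.0323). Of the matrix genes, Mfap4 went from 1.99 to 0.81 (adjusted p = 0.032) and Col8a1 from -1.49 to -2.48 (adjusted p = 0.0237). Cpxm2 went from -6.47 to -8.22 (adjusted p = 0.00324).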

How the results depend on the processing

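Of the 218 named genes that were called, 194 stayed called in the same direction under every alternative that kept the 1.5-fold limit, and 209 when any single mouse was dropped. The count of called genes was 5821 with DESeq2, 6099 with RLE and 6140 with upper quartile scaling, 6424 with no filter on low counts, 5328 for genes of 10 or more counts in all 6 libraries and 5470 to 6276 when 1 mouse was left out. Without the mouse block it was 6098, of which 5928 were shared with the blocked fit in the same direction, and the calls of Cyp26b1, Hbb-bs and 5 unprinted named genes were lost; it changed no other call among named genes. A log2 limit of 1.5 in place of the 1.5-fold limit left 2259 genes (1355 higher in atria, 904 in ventricles), and no fold limit gave 9739 (4945 and 4794). On total counts 6903 genes were higher in atria and 1450 in ventricles, so 82.6% of calls were higher in atria against 52.3% with TMM, and 4645 calls were shared. That scaling turned the differences of 7 printed genes that were not called, to 0.11 for Myh7, 0.031 for Tnni3, 0.43 for Atp2a2, 0.41 for Ryr2, 0.31 for Cox6a1, 0.091 for Ndufa13 and 0.015 for Atp5g2. It also gave calls higher in atria to 4 printed genes that were not called, at 0.80 for Nkx2-5, 0.63 for Gata4, 0.71 for Cox8a and 0.83 for Pecam1, and ended those of Penk (-0.53), Eef1a2 (-0.37) and Rps2 (-0.28). Atp5d gained a call, at -0.60, without mouse V334. DESeq2 ended the calls of Xirp1 (0.70) and mt-Nd4l (-0.78) at differences similar to those of the main fit. Atp2a2 also turned, to 0.010, with upper quartile scaling, Ryr2 ran from -0.174 to 0.058 and Gja1 from -0.019 to 0.066 when 1 mouse was left out, turning without V334 and without V327. The interaction count ranged from 83 to 243 when 1 of the 6 mice was left out, and was 253 without the mouse block. The causes of these changes were not tested, beyond the fewer samples when a mouse is left out. With 3 mice per genotype, differences below the fold limit and genes within a few counts of 0 in 1 chamber are the least certain.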
